A study of Mus musculus with 6 samples.

Results

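The genes described here are the 10 members of 3 groups of signalling adaptors, namely 6 TRAF genes (Traf1 to Traf6), 3 genes of the inhibitor of apoptosis (IAP) family (Birc2, Birc3 and Xiap) and Cyld. They were taken by symbol from the count table, which lists 53278 genes, and all 10 passed the filter on low counts among 14361 genes tested. RNA was sequenced from group 2 innate lymphoid cells (ILC2s), tissue-resident lymphocytes that make type 2 cytokines, sorted from visceral adipose tissue of C57BL/6 mice aged 8 weeks. Every mouse had received 3 intraperitoneal injections of 1 µg recombinant IL-33. All cultures contained IL-2 and IL-7 at 10 ng/mL each, and were kept for 48 h per the labels, although a shorter culture is named elsewhere in the study. One set of 3 libraries received DTA-1, an agonistic antibody to the costimulatory receptor GITR, at 5 µg/mL. The other 3 libraries received the isotype control antibody per the sample titles and the study, while the labels of their counts name PBS. The labels do not say whether the libraries came from separate mice, pools or cultures, so p-values measure only the spread between these libraries.

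TRAF proteins are adaptors that bind the cytoplasmic tails of TNF receptors such as GITR and carry the signal to NF-κB and MAP kinases. In resting lymphocytes TRAF2 and TRAF3 hold the IAP ubiquitin ligases encoded by Birc2 and Birc3 next to the kinase NIK, which is degraded in consequence, and receptor ligation breaks up this complex and opens the alternative NF-κB pathway. Traf1 and Birc3 are known NF-κB target genes, TRAF6 serves the IL-1 receptor family that includes the IL-33 receptor, and CYLD is a deubiquitinase that removes the ubiquitin chains on which these complexes are built.

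The libraries held 30569351 to 35131329 counts. DTA-1 replicate 1 lay closer to the isotype control libraries than to the other DTA-1 libraries. The chi-square distance between its counts and those of an isotype control library was 9.64 to 11.3 per degree of freedom, against 11.4 to 17.0 between isotype control libraries, 27.1 to 28.2 between it and the other DTA-1 libraries, and 11.4 between those. It was kept under its label, and the fold changes of the members are given with and without it. It was singled out because its counts resembled those of the controls. Leaving out a DTA-1 library on that ground tends to widen differences and to narrow their spread. The p-values, intervals and calls of the fit without it are therefore descriptive. ILC2 markers were abundant (summed level of 12 genes 13761 to 14614 normalized counts in isotype control and 14804 to 19386 in DTA-1), and Gata3 and Rora were present in all libraries. The sum includes cytokine genes and does not measure purity. Il5 alone was at 5063 to 5493 in isotype control and at 5627, 9695 and 8899 in DTA-1. In DTA-1 replicates 2 and 3 Gata3, Il1rl1 and Kit lay below every control. Id2, Il2ra, Il5, Il13 and Areg lay above every control there, and the remaining markers overlapped. Cd8a and Ms4a1 were at 0 counts in all libraries, and the summed levels were 41.0 to 54.2 and 47.7 to 51.3 normalized counts for 7 T cell markers and 6.44 to 12.2 and 8.67 to 11.9 for 8 macrophage markers. The 4 mast cell markers summed to 14.3 to 18.2 normalized counts in isotype control, and to 14.2, 41.8 and 29.1 in DTA-1 replicates 1, 2 and 3. The 4 endothelial markers summed to 18.4 to 24.5 and then to 18.4, 10.8 and 10.8, nearly all of it Pecam1, with Cdh5 at 0, and the 6 fibroblast markers to 2.20 to 8.39 and then to 0, 0.288 and 3.98. The part of these cells in the results was not tested, and in bulk RNA fewer cells of a type and less RNA per cell cannot be told apart.

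Scaled to the length of their annotated exons, the members spanned a wide range in isotype control. Traf1 was highest, with 20.5 ± 1.70 normalized counts per kb of exon (SD, n = 3), followed by Birc3 with 16.4 ± 0.673 and Traf2 with 14.5 ± 0.368 per kb. Cyld (10.8 ± 0.864 per kb), Birc2 (8.06 ± 1.33 per kb), Traf3 (6.21 ± 0.299 per kb), Traf6 (5.01 ± 0.238 per kb) and Traf4 (4.50 ± 0.837 per kb) came next. Xiap and Traf5 were lowest, with 0.775 ± 0.0714 and 0.571 ± 0.231 per kb. Of neighbours in this order, Traf6 and Traf4 overlapped between libraries, as did Xiap and Traf5. In DTA-1 replicates 2 and 3 the first places were held by Birc3, at 31.8 and 32.7 per kb, and Traf1, at 32.6 and 30.8 per kb, whose ranges overlapped. Exon length was the union over all annotated transcripts, so a gene with many isoforms may be scaled down too far.

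**Figure D1:**
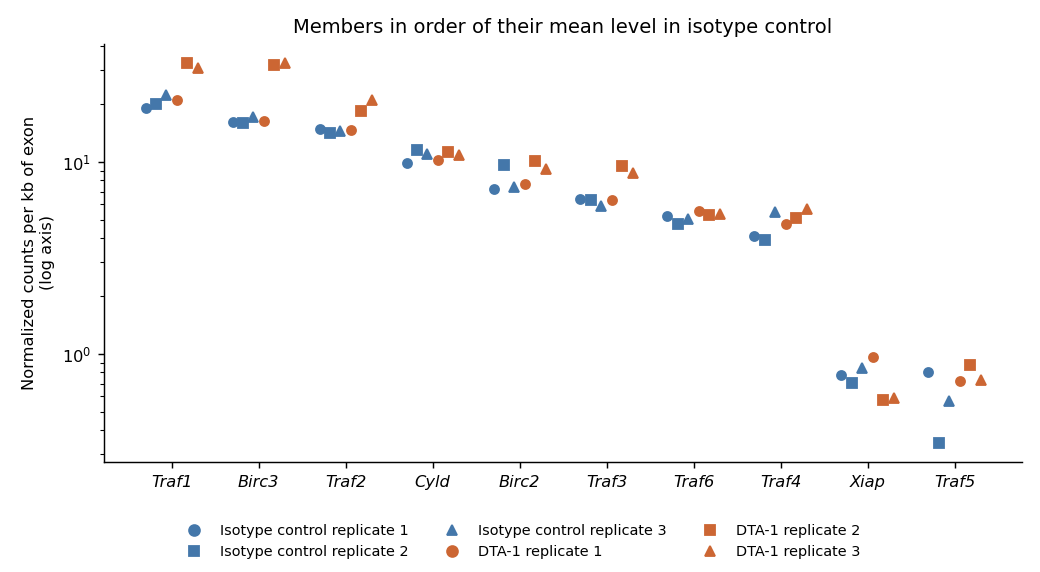
Normalized counts per kb of exon (log axis) of the 10 members in each library, in the order of their isotype control mean, with blue for isotype control, orange for DTA-1 and a symbol for each replicate number. Traf1 (19.1 to 22.4) and Birc3 (16.0 to 17.2) lead in isotype control, and Xiap and Traf5 lie below 1.

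Among the TRAF genes, Traf1, Traf3 and Traf2 had the largest differences relative to their spread, and these came from DTA-1 replicates 2 and 3. Traf1, which encodes the family member without a RING domain (chromosome 2, 34941750 to 34961772, minus strand), measured 168, 177 and 197 normalized counts across isotype control replicates 1 to 3, against 185, 288 and 272 across DTA-1 replicates 1 to 3. DTA-1 replicate 1 thus lay within the isotype control range, and the other DTA-1 libraries lay above every isotype control library. With all 6 libraries the log2 fold change of Traf1 was 0.46 (standard error, SE, 0.14, adjusted p = 0.627 in edgeR). When DTA-1 replicate 1 was left out it was 0.63 (SE 0.08, 95% CI 0.46 to 0.80, adjusted p = 0.00346 in edgeR), a rise of 1.55-fold.

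Traf3, whose product is the inhibitory subunit of the NIK-degrading complex (chromosome 12, 111166370 to 111267153, plus strand), measured 47.3, 46.6 and 43.2 normalized counts in the control libraries, against 46.5, 69.9 and 64.1 in the DTA-1 libraries. The same pattern was seen as for Traf1, with DTA-1 replicate 1 inside the isotype control range. Its log2 fold change was 0.40 (SE 0.13, adjusted p = 0.628 in edgeR) with all libraries, and 0.55 (SE 0.09, 95% CI 0.35 to 0.76, adjusted p = 0.0154 in edgeR) without DTA-1 replicate 1, or 1.47-fold. Traf2, which encodes the ligase-recruiting adaptor of the same complex (chromosome 2, 25517982 to 25546940, minus strand), measured 76.0, 72.3 and 74.0 normalized counts in the control libraries, against 74.4, 94.2 and 106.7 in the DTA-1 libraries. Here too the first DTA-1 library fell among the controls. The log2 fold change of Traf2 was 0.31 (SE 0.11, adjusted p = 0.647 in edgeR), and 0.44 (SE 0.08, 95% CI 0.26 to 0.62, adjusted p = 0.0290 in edgeR) in the comparison of 2 DTA-1 libraries with 3 isotype control libraries. Traf3 and Traf2 thus rose in that comparison by less than the 1.5-fold limit used for a call.

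**Figure D2:**
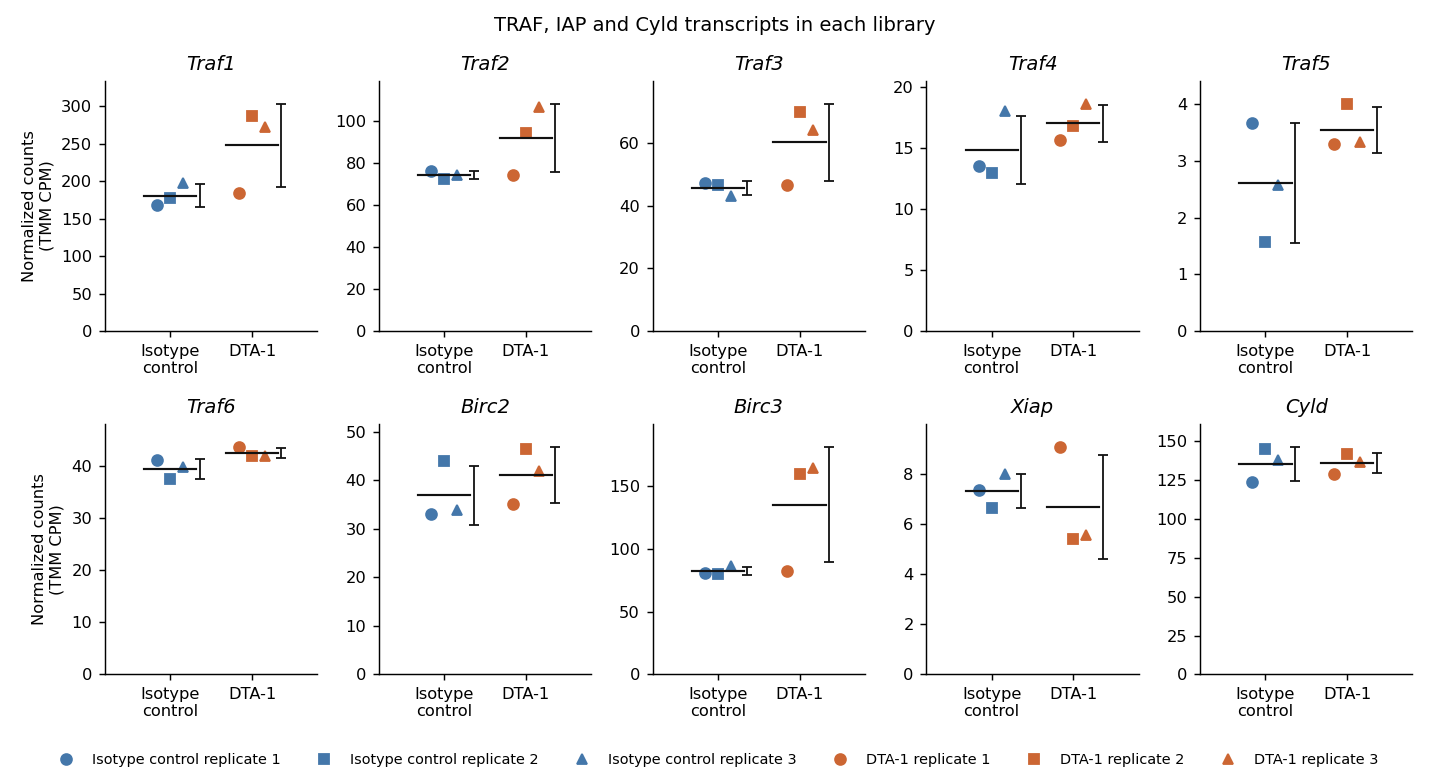
Normalized counts (counts scaled by library size and TMM) of each member in the 3 isotype control (blue) and 3 DTA-1 (orange) libraries, with a symbol for each replicate number, horizontal bars for group means and error bars for the SD. In the panels of Traf1, Traf2, Traf3 and Birc3 the DTA-1 circle (replicate 1) lies among the isotype control points and the DTA-1 square and triangle lie above them.

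The remaining TRAF genes passed no test, with or without DTA-1 replicate 1. Traf6, the adaptor of the IL-1 receptor family (chromosome 2, 101678429 to 101701669, plus strand), measured 41.1, 37.4 and 39.9 normalized counts in the control libraries, against 43.7, 41.9 and 41.9 in the DTA-1 libraries. Traf6 was the 1 member whose groups did not overlap with all 6 libraries, yet the gap was small, with a log2 fold change of 0.11 (SE 0.09, 95% CI -0.09 to 0.30, adjusted p = 0.832 in edgeR), and the groups overlapped after scaling to total counts. This interval does not reach 1.5-fold in either direction. Traf4 (chromosome 11, 78158499 to 78165589, minus strand) measured 13.5, 12.9 and 18.0 normalized counts in the control libraries, against 15.7, 16.8 and 18.6 in the DTA-1 libraries, and its groups overlapped (log2 fold change 0.20, SE 0.16, adjusted p = 0.822 in edgeR). Traf5, an adaptor of several costimulatory TNF receptors (chromosome 1, 191997205 to 192092559, minus strand), had few counts, with 130, 55 and 91 counts in the control libraries, against 102, 125 and 106 in DTA-1. The groups overlapped, normalized counts of the controls had a coefficient of variation of 40.4%, and the log2 fold change of 0.44 had an SE of 0.33 (adjusted p = 0.797 in edgeR). With DTA-1 replicate 1 left out the log2 fold changes of Traf6, Traf4 and Traf5 were 0.09, 0.26 and 0.49 (adjusted p = 0.761, 0.570 and 0.615 in edgeR). The counts of Traf5 are also uncertain because the processed pseudogene Gstp-ps, on the same strand inside the Traf5 locus, had a mean of 84.1 counts against 101 for Traf5.

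Birc3 had the largest difference of the 10 members. This gene, which encodes the IAP ubiquitin ligase cIAP2 (chromosome 9, 7848699 to 7873186, minus strand), measured 80.7, 80.1 and 86.2 normalized counts in the control libraries, against 82.1, 159 and 164 in the DTA-1 libraries. DTA-1 replicate 1 again lay inside the narrow isotype control range, and replicates 2 and 3 lay well above it and close together. The log2 fold change of Birc3 was 0.71 (SE 0.22, 95% CI 0.22 to 1.21, adjusted p = 0.627 in edgeR) with all 6 libraries. It was 0.97 (SE 0.07, 95% CI 0.82 to 1.13, adjusted p = 0.000115 in edgeR) with DTA-1 replicate 1 left out, a rise of 1.96-fold.

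The neighbouring paralog Birc2, which encodes cIAP1 (chromosome 9, 7818227 to 7837064, minus strand), was below Birc3 per kb of exon in every library. It measured 33.0, 43.9 and 33.9 normalized counts in the control libraries, against 35.0, 46.4 and 41.9 in the DTA-1 libraries. The groups overlapped, with isotype control replicate 2 standing high among the controls, and the log2 fold change was 0.16 (SE 0.14, adjusted p = 0.843 in edgeR), or 0.26 (SE 0.14, 95% CI -0.05 to 0.56, adjusted p = 0.441 in edgeR) without DTA-1 replicate 1. Exact sequence shared by these genes was limited, with 65 of the 4579 distinct 50-base words in Birc2 transcripts also found in Birc3 transcripts. Shorter matches and matches with mismatches were not counted, so some confusion of reads is not excluded. Of the other pairs of members, Birc3 and Cyld alone shared any such words, 12 of 5079. Xiap, which encodes a direct caspase inhibitor (chromosome X, 42059679 to 42109656, plus strand), measured 7.38, 6.64 and 7.99 normalized counts in the control libraries, against 9.09, 5.41 and 5.58 in the DTA-1 libraries. The DTA-1 libraries lay on either side of the controls, replicate 1 above all of them and replicates 2 and 3 below. The log2 fold change of Xiap was -0.13 (SE 0.23, adjusted p = 0.936 in edgeR), and -0.42 (SE 0.20, 95% CI -0.87 to 0.04, adjusted p = 0.404 in edgeR) without replicate 1 of DTA-1, and it reached 0.0037 when DTA-1 replicate 2 was left out.

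Cyld, the deubiquitinase gene, had nearly the same mean in both groups (135 and 136 normalized counts). It measured 123, 145 and 138 normalized counts in the control libraries, against 129, 141 and 137 in the DTA-1 libraries (chromosome 8, 88697028 to 88751945, plus strand). All 3 DTA-1 values fell inside the isotype control range. The log2 fold change of Cyld was 0.0037 (SE 0.08, 95% CI -0.16 to 0.17, adjusted p = 0.995 in edgeR), an interval that lies within a 1.5-fold change in either direction, and its sign turned under scaling to total counts. It was 0.04 (95% CI -0.14 to 0.22, adjusted p = 0.877 in edgeR) without DTA-1 replicate 1.

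Across the 10 members 9 had a higher and 1 a lower fitted level with DTA-1, with a median log2 fold change of 0.25 against -0.0078 for all genes tested. None was differentially expressed, which required 1.5-fold or more together with an edgeR adjusted p below 0.05 (0 members by edgeR, DESeq2 and limma alike), and 0% of all tested genes met these limits in edgeR. At an unadjusted p under 0.05, 4 members were higher (Traf1, Traf2, Traf3 and Birc3), where 4.11% of tested genes were. Birc3 alone also passed 1.5-fold, as did 1.09% of tested genes in that direction. The groups did not overlap in 1 member, which was higher, against 5.26% of tested genes that were higher and 6.03% that were lower without overlap. DTA-1 replicate 1 lay inside the isotype control range in 8 members, and in 54.1% of all tested genes.

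With DTA-1 replicate 1 left out, 14911 genes were tested and 2 members, Traf1 and Birc3, passed both limits, both higher, against 0.583% of tested genes called higher. That library was picked by its likeness to the controls, so these calls are descriptive. Dropping the fold limit added Traf2 and Traf3 and made 4 members, against 1.35% of tested genes. In 5 members (these 4 and Traf6) both DTA-1 libraries lay above every isotype control library, as in 15.3% of tested genes, and in 1 member (Xiap) both lay below, as in 15.9%. The median log2 fold change of the members was then 0.35. DESeq2's Wald test and limma-trend called the same members, Traf1 and Birc3, when this library was left out.

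**Figure D3:**
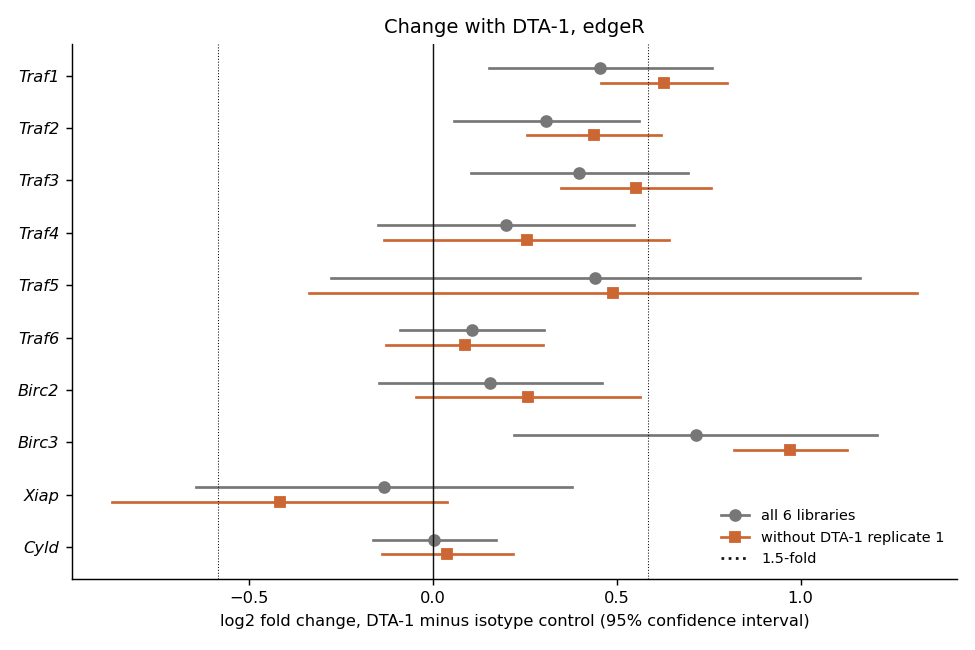
Log2 fold change of each member between DTA-1 and isotype control by edgeR, with its 95% confidence interval, for all 6 libraries (gray circles) and without DTA-1 replicate 1 (orange squares), and dotted lines at 1.5-fold. The interval of Birc3 narrows from 0.22 to 1.21 with all libraries to 0.82 to 1.13 without that library, and those of Traf4, Traf5, Traf6, Birc2, Xiap and Cyld cross 0 in both fits.

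The size of these differences depended on which DTA-1 library was left out. For Birc3 the log2 fold change ranged from 0.55 without DTA-1 replicate 3 to 0.97 without replicate 1, and for Traf1 from 0.34 without DTA-1 replicate 2 to 0.63. For Traf3 and Traf2 the lowest values were 0.28 and 0.19. Leaving out any isotype control library called none of the members (0 members by edgeR). Traf5 ranged from 0.18 without isotype control replicate 2 to 0.78 without isotype control replicate 1.

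**Figure D4:**
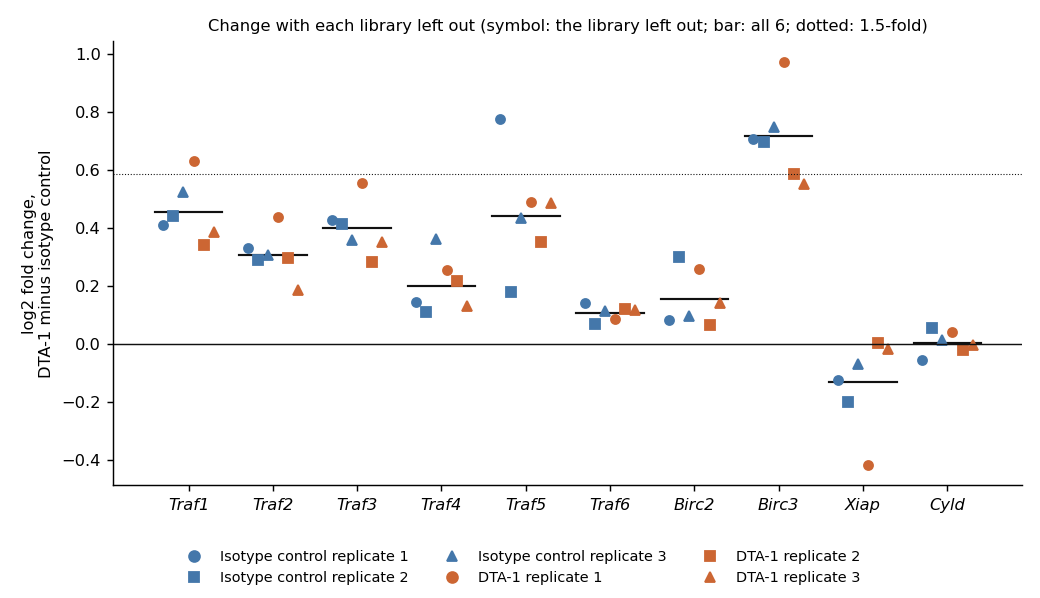
Log2 fold change of each member with 1 library left out at a time, where the colour and symbol name the library left out, the bar gives the value with all 6 libraries and the dotted line marks 1.5-fold. For Birc3, Traf1, Traf3 and Traf2 the highest value is the one without DTA-1 replicate 1 (0.97, 0.63, 0.55 and 0.44).

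Ratios of counts between members of 1 library do not depend on how libraries are scaled to each other. The ratio of Birc3 to Birc2 counts was 2.45, 1.82 and 2.54 across the control libraries, against 2.34, 3.43 and 3.91 across DTA-1 replicates 1 to 3. Replicates 2 and 3 of DTA-1 lay above all controls, and replicate 1 did not (exact two-sided permutation p = 0.3, where 3 libraries against 3 cannot give a p below 0.1). The ratio of Birc3 to Xiap was 10.8 to 12.1 in the control libraries, against 9.04, 29.4 and 29.4 with DTA-1. Traf1 to Traf6 was 4.09 to 4.95 in the control libraries, against 4.23, 6.86 and 6.48 with DTA-1, and Traf3 to Traf6 was 1.08 to 1.24 and then 1.06, 1.67 and 1.53. The ratio of Traf1 to Traf2 overlapped between the groups, at 2.21 to 2.67 in the controls against 2.48, 3.05 and 2.55 with DTA-1. That of Traf2 to Traf3 overlapped as well, at 1.61, 1.55 and 1.72 in the controls against 1.60, 1.35 and 1.66 with DTA-1. Of the summed TRAF levels per kb, Traf1 made up 39.9 ± 1.99% in isotype control (SD, n = 3), and 39.6%, 45.4% and 42.7% in DTA-1 replicates 1, 2 and 3. Of the summed levels per kb of the 3 IAP genes, Birc3 made up 65.1 ± 3.72% in isotype control, and 65.6%, 74.8% and 77.1% in the DTA-1 libraries.

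**Figure D5:**
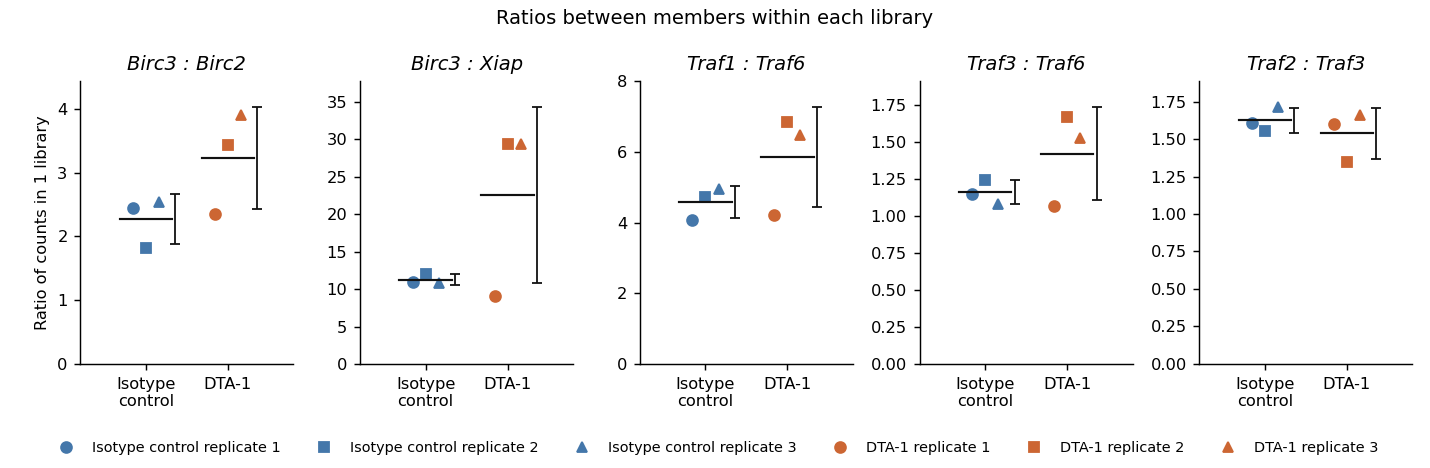
Ratios of counts between pairs of members within each library, isotype control in blue and DTA-1 in orange, with a symbol for each replicate number, bars for group means and error bars for the SD. DTA-1 replicates 2 and 3 lie above all controls for Birc3 to Birc2, Birc3 to Xiap, Traf1 to Traf6 and Traf3 to Traf6, and the groups overlap for Traf2 to Traf3.

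The promoter windows of Birc3, Traf1 and Traf3, the members with the highest log2 fold changes without DTA-1 replicate 1 (with all libraries Traf5 came before Traf3), are printed with that of Cyld, which passed no test, since several of these genes are known to respond to NF-κB. RefSeq sequence of GRCm38.p6 from 250 bases before to 50 bases after an annotated start was available for all 10 members, in 13 windows. Both strands were searched for the NF-κB consensus motif, known as the κB site, and matches are in capitals. All 4 sequences read 5′ to 3′ on the strand of the gene.
Traf1, chr2:34961723-34962022, minus strand: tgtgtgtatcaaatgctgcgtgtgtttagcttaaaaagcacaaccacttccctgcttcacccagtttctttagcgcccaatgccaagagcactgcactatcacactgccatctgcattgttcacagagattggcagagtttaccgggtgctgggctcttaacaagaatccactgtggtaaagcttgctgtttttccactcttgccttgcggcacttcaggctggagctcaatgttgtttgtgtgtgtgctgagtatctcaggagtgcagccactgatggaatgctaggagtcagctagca
Birc3, chr9:7873121-7873420, minus strand: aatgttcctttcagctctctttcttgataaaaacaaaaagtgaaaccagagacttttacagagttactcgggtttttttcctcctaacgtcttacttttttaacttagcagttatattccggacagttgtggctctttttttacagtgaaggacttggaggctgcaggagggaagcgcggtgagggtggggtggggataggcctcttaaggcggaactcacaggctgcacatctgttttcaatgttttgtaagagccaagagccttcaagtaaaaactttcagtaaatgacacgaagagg
Traf3, chr12:111166120-111166419, plus strand: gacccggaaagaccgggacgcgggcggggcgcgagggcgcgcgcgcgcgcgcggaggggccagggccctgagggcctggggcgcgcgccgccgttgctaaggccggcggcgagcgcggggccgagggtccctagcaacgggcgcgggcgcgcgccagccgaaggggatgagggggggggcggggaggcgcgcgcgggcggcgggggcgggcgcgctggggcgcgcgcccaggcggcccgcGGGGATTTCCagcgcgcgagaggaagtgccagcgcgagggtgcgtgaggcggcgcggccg
Cyld, chr8:88696778-88697077, plus strand: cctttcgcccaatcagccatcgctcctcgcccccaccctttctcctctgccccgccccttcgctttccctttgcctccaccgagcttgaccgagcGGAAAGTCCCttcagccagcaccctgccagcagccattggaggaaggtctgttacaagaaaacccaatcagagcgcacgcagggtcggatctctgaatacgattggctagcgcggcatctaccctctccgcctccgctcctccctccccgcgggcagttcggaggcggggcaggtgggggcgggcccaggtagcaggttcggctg

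Of the 13 windows 3 held a match, in 3 genes, compared with 8.46% of all 32851 windows and 10.2% of the 12485 windows of tested genes. Traf3 had GGGGATTTCC at positions -10 to -1 from its start, on the strand of the gene. Cyld had GGGACTTTCC at -155 to -146 on the opposite strand, and 1 of the 3 Xiap windows had GGGACCCTCC at 23 to 32. The windows of Birc3 and Traf1 held no match to the motif searched. Only 250 bases before to 50 bases after an annotated start were read, so κB sites elsewhere or with other letters would be missed. A match is a description of the sequence, and binding was not measured.

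Other genes of the pathway were read from the same fits. Of 15 TNF receptors that bind TRAF proteins, all were tested, 7 had a higher and 8 a lower fitted level with DTA-1, and their median log2 fold change was -0.02 (-0.04 without DTA-1 replicate 1). Tnfrsf18, which encodes GITR itself, measured 747, 666 and 740 normalized counts in the control libraries, against 712, 756 and 657 in the DTA-1 libraries, with overlapping groups and log2 fold changes of -0.02 in both fits (adjusted p = 0.971 with all libraries and 0.933 without DTA-1 replicate 1, in edgeR). Tnfrsf4, which encodes the costimulatory receptor OX40, measured 29.8, 22.4 and 30.5 normalized counts in the control libraries, against 32.3, 55.2 and 56.8 in the DTA-1 libraries, all higher than the controls. The log2 fold change of Tnfrsf4 was 0.80 (SE 0.20, adjusted p = 0.627 in edgeR), and 1.02 (SE 0.13, adjusted p = 0.00573 in edgeR) without DTA-1 replicate 1, when it was the 1 receptor called. Tnfrsf9, which encodes the costimulatory receptor 4-1BB, had a log2 fold change of 0.41 (SE 0.16, adjusted p = 0.655 in edgeR) with all libraries, and rose by 0.58 (SE 0.12, adjusted p = 0.0481 in edgeR), short of 1.5-fold, without that library.

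Of 19 genes listed as partners of TRAF proteins, among them Tank, Tradd, Ripk1 and Map3k14, 18 were tested. Of these, 12 were higher and 6 lower, and the median log2 fold change was 0.04 in both fits. None of the partners passed in edgeR, with or without DTA-1 replicate 1 (0 genes in each, and 0 at an unadjusted p under 0.05 with all libraries). Of 14 other IAP genes, IAP antagonists and caspases, 12 were tested with 6 higher and 6 lower and a median log2 fold change of 0.0038 (0.03 without DTA-1 replicate 1). A list of other deubiquitinases and linear ubiquitin ligase subunits, which also held Spata2, had 8 genes in the count table. All were tested, 4 were higher and 4 lower, with a median of -0.0099 (-0.01 without that library). Tnfaip3, which encodes the ubiquitin-editing enzyme A20, was called without DTA-1 replicate 1, with a log2 fold change of 0.71 (SE 0.10, adjusted p = 0.00925 in edgeR), against 0.51 (adjusted p = 0.627 in edgeR) with all libraries.

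Of 12 NF-κB subunits, inhibitors and kinases, 11 were higher and 1 lower, with a median log2 fold change of 0.19 and 0 calls with all 6 libraries, and a median of 0.27 without DTA-1 replicate 1. At an unadjusted p under 0.05 in edgeR, 4 were higher and 1 lower. Over all 14361 tested genes 4.11% were higher at that limit, and 1037 genes passed it in either direction. Without DTA-1 replicate 1, 4 of the list were called higher, against 0.583% of tested genes. Of these 4, Nfkb2, Nfkbia and Relb had the smallest p. Nfkb2, which encodes the precursor of the alternative NF-κB pathway, measured 115, 103 and 115 normalized counts in the control libraries, against 108, 307 and 315 in the DTA-1 libraries. As for Birc3, DTA-1 replicate 1 lay among the controls and the other DTA-1 libraries far above them. The log2 fold change of Nfkb2 was 1.13 (SE 0.43, adjusted p = 0.678 in edgeR), and 1.49 (SE 0.07, adjusted p = 1.34e-05 in edgeR) without DTA-1 replicate 1. In the latter fit Relb, the partner subunit of that pathway, rose by 1.11 and Nfkbia, an NF-κB inhibitor, by 1.19 on the log2 scale (adjusted p = 0.000610 and 0.000115 in edgeR), against log2 fold changes of 0.83 and 0.88 (adjusted p = 0.627 and 0.657 in edgeR) with all libraries. Nfkb1, which encodes a subunit of the classical pathway, was the 1 gene of the list with a lower fitted level, with a log2 fold change of -0.32 (SE 0.13, adjusted p = 0.657 in edgeR) in all libraries, and it fell by 0.54 (SE 0.06, adjusted p = 0.00162 in edgeR), short of 1.5-fold, in the fit without DTA-1 replicate 1. Map3k14, which encodes the kinase NIK and is the substrate of the complex of TRAF2, TRAF3 and the IAP ligases, measured 22.9, 24.5 and 29.6 normalized counts in the control libraries, against 24.6, 30.8 and 38.1 in the DTA-1 libraries. Its fitted log2 difference was 0.28 (SE 0.16, adjusted p = 0.738 in edgeR). DTA-1 replicate 1 lay within the control range and the other DTA-1 libraries above it, and leaving out replicate 1 gave 0.43 (SE 0.14, adjusted p = 0.216 in edgeR).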

How the data were processed

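RNA from 6 libraries of sorted mouse ILC2s was read, 3 given DTA-1 and 3 given isotype control, each made from 10 ng of RNA. The authors aligned the reads and quantified genes in Partek, and the table they deposited holds expected counts, estimated by gene and not normalized. The submitters' processing notes also name bcl2fastq 2.17.1.14, STAR 2.5.3a and mm10. The annotation release, strand setting and handling of reads shared between genes were not given in the sources used here, so antisense and overlapping genes cannot be told apart.

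Expected counts were rounded. Low genes were removed with filterByExpr, libraries were scaled by TMM, and DTA-1 was compared with isotype control by edgeR 4.0.16 quasi-likelihood F tests with robust dispersions in R 4.3.3, with Benjamini-Hochberg adjustment over all tested genes. Normalized counts are CPM after TMM. The study's methods name software but no model for this comparison, and the threshold (adjusted p under 0.05, at least 1.5-fold) follows the study. Each SE was derived from the F statistic. A count of 0 allows up to 3 counts, or 0.0848 to 0.0970 normalized counts, for counting error only. On simulated data with 200 genes changed 2-fold, 191 were recovered with 9 false calls in the design with all 6 libraries, and 181 with 10 false calls without DTA-1 replicate 1 (14361 genes each). The simulation gave all genes a common dispersion, changed only genes with higher counts and shifted every DTA-1 library alike. In the real data DTA-1 replicate 1 lay near the controls, so the simulation checks the code and does not give the power of these fits. The alternatives were DESeq2 1.42.0, limma 3.58.1 with a prior count of 2, other scalings, no filter or at least 10 counts in every library, other thresholds, the replicate number as a block, and each library left out. Fits combining the omission of DTA-1 replicate 1 with another tool or scaling were added after the values were seen. The labels do not say whether replicate numbers pair the samples. Deviations from the group means of same-numbered libraries were hardly correlated (-0.0069, -0.0028 and 0.015). This does not exclude pairing, because DTA-1 replicate 1 differs from the other DTA-1 libraries over many genes.

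Coordinates and exon lengths are from GENCODE mouse release M21 (GRCm38), whose starts matched those in the table for all 10 members. The named genes are the 10 members, pathway genes called with or without DTA-1 replicate 1 (up to 3 per list), and the 5 genes nearest in pattern to Traf1 and to Birc3. Other pathway genes named for context, namely Tnfrsf18, Tnfrsf9, Nfkb1, Map3k14 and the examples of TRAF partners, were chosen after their values were seen. The members and lists were chosen with earlier results of these data known. Some items are not reported here. Summaries were computed in Python 3.11.15.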

Additional observations from a re-analysis of the deposited data

How the results depend on the processing

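No setting with all 6 libraries and an adjusted p called a member, and the members' log2 fold changes changed sign in 5 of 160 refits, which were Xiap without DTA-1 replicate 2 (0.0037), and Cyld with total counts (-0.034), without isotype control replicate 1 (-0.054), and without DTA-1 replicates 2 (-0.022) and 3 (-0.0024). The cause was not tested. With libraries left out in turn, Xiap ranged from -0.42 to 0.0037 and Cyld from -0.054 to 0.056. With each library left out in turn the count of members called ranged from 0 to 2, that of pathway genes from 0 to 6 and that of all genes from 0 to 111, with the highest values without DTA-1 replicate 1. The count of members without overlap ranged from 1 to 6 over these refits (6 without DTA-1 replicate 1, and 3, 2 and 4 without isotype control replicates 1, 2 and 3, where fewer samples are compared), and it was 0 with total counts. Without DTA-1 replicate 1, 15.3% of tested genes lay higher and 15.9% lower without overlap. For the other refits the share over all tested genes was not computed, so their counts are no result about the members. With 6 libraries DESeq2 called 25 genes and 1 pathway gene, the fit without a filter 2 genes, and the fit with the replicate number as a block 1 gene and 0 members. Whether these numbers pair the samples is not known. At an unadjusted p and 1.5-fold there were 337 genes, 4 pathway genes and 1 member. Without DTA-1 replicate 1, DESeq2's Wald test called 182 genes, 7 pathway genes and 2 members, limma-trend 120, 6 and 2, and edgeR with DESeq2 size factors 113, 7 and 2. Over all settings the adjusted p of Traf1 ranged from 8.89e-13 to 0.999 and of Birc3 from 7.96e-31 to 0.999. Traf5 had the fewest counts, 55 to 130 a library.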

Other observations

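The genes whose levels followed Traf1 and Birc3 most closely were sought among 8722 tested genes with a mean of at least 10 normalized counts, by the root mean square difference of log2 normalized counts, centred on each gene's mean, over the 6 libraries. Nearest to Traf1 were Gmppb, an enzyme of mannose activation, at 0.0358, Tnfaip3, the A20 gene, at 0.0469, the syntaxin gene Stx11 at 0.0601, the IL-27 receptor gene Il27ra at 0.0703, and Calr, the chaperone calreticulin, at 0.0768. Gmppb measured 82.2, 84.3 and 95.3 normalized counts in the control libraries, against 88.1, 145 and 126 in the DTA-1 libraries. Nearest to Birc3 were Col18a1, a collagen gene, at 0.0824, the proprotein convertase gene Furin at 0.0949, the adhesion molecule gene Icam1 at 0.0994, Uap1 at 0.100 and Padi2 at 0.102. Furin measured 1112, 1347 and 1318 normalized counts in the control libraries, against 1268, 2645 and 2617 in the DTA-1 libraries. The difference between Traf1 and Birc3 was 0.174, which placed Traf1 at rank 35 among the genes nearest to Birc3, and Birc3 at rank 288 among those nearest to Traf1. The measure rests on 6 libraries that all genes share.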
